A study of Bombus terrestris with 8 samples.

Results

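The let-7 and mir-125 cluster of the bumblebee Bombus terrestris comprised 3 of the 65 mature miRNA entries sequenced from larvae. The entries were chosen by name. They were bte-let-7, bte-mir-125, and MC1211, an entry without a miRBase identifier that is the other arm of the mir-125 hairpin, so the 3 entries came from 2 hairpins. All 3 passed the filter for testing. Small RNA was sequenced from whole bodies of diploid female larvae destined to become workers, with 4 libraries from late larvae (instar 4) and 4 from early larvae (instars 1 and 2). Larvae came from 4 colonies, each of which gave 2 of the libraries, and each library was made from a pool of larvae of the same colony and stage. All larvae were worker-destined and the labels name no treatment, so stage was the only difference between the groups that the labels give. In whole-body pools, more cells that express a miRNA and more of the miRNA per cell cannot be told apart.

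MiRNAs are short RNAs that guide Argonaute proteins to target transcripts through a seed, bases 2 to 8 of the mature sequence, and lower the output of these transcripts. The founding members of this group, lin-4 and let-7, were found in Caenorhabditis elegans as heterochronic genes, which set the order of larval stages, and mir-125 is the homolog of lin-4. In Drosophila melanogaster, mir-100, let-7 and mir-125 are processed from a common primary transcript that is switched on towards the end of larval life with the pulses of the steroid hormone ecdysone. There let-7 represses abrupt, a transcription factor gene of the neuromuscular junction, and let-7 and mir-125 together repress chinmo, a gene of temporal identity in neurons. The listed entries included no bte-mir-100 by name, and mir-100 was not analysed further here.

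The mature sequences are shown 5′ to 3′ because the seed decides which transcripts each arm can pair with, and capitals mark the seed.
bte-let-7: uGAGGUAGuagguuguauagua
bte-mir-125: cCCCUGAGacccuaacuuguga
MC1211: aCAGGCUAgauucucugguau
The 3 seeds differed from each other. Of the other entries, 0 shared a seed with any of them, and 0 precursors outside the cluster contained any of these mature sequences, so no other listed precursor matched their reads exactly. The mature sequences were 22, 22 and 21 nt long. Bias of ligation and amplification between sequences was not measured, so ratios of reads between entries are compared across libraries and are not ratios of molecules.

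Both hairpins lay on the minus strand of scaffold Group16.3 in the assembly Bter_1.0. The bte-let-7 precursor ran from 579826 to 579914 with its mature sequence at 579885 to 579906. The mir-125 hairpin ran from 579332 to 579410, with bte-mir-125 at 579379 to 579400 on the 5p arm and MC1211 at 579340 to 579360 on the 3p arm. Read along the minus strand, let-7 came first and the mir-125 hairpin followed after a gap of 415 bases, and the whole cluster spanned 583 bases. The gene in which the cluster may lie was not analysed here. The precursors are shown next with the listed mature arms in capitals, because they show that let-7 was listed from 1 arm only and mir-125 from both.
let-7 hairpin: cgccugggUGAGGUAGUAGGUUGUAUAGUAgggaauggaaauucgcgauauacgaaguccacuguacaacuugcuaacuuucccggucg
mir-125 hairpin: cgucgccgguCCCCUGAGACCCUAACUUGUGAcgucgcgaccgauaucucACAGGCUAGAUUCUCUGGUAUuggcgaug
Folded with RNAfold, the let-7 hairpin had a minimum free energy of −37.3 kcal/mol and the mir-125 hairpin −34.8 kcal/mol. In the predicted fold, bte-mir-125 and MC1211 formed 14 base pairs with each other across a stretch of 18 bases, and each arm ended 2 bases beyond its partner on its 3′ side. Such overhangs are the usual mark of the RNase III enzymes Drosha and Dicer, and the pair of entries thus had the shape of a miRNA duplex. The other listed entries on this scaffold, bte-mir-29b and MC218, were on the plus strand, 511433 and 1318154 bases from the let-7 precursor.

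**Figure D1:**
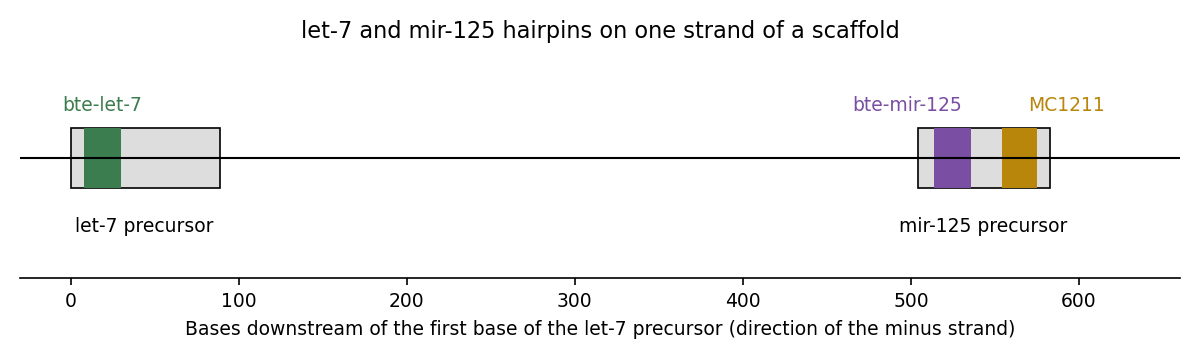
Positions of the listed mature sequences (coloured) in their precursors (grey), in bases downstream of the first base of the let-7 precursor along the minus strand. The mir-125 precursor follows the let-7 precursor after 415 bases and carries a listed mature sequence on each arm.

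Reads on the 63 distinct listed mature sequences with counts in every library numbered 45649 to 257161 in late libraries and 204223 to 502540 in early libraries. These are sums over the list, and the full depth of the libraries was not used here. Shares are given as CPM, the reads of a miRNA per 1000000 listed reads of its library. One read was worth 3.89 to 21.9 CPM in late libraries and 1.99 to 4.90 CPM in early libraries, so late replicates 2 to 4 are less precise. Late replicate 1 was not shallow, since it had more listed reads (257161) than early replicate 3 (204223). bte-mir-1, known from muscle in other animals, took 34.6% to 46.8% of listed reads in late libraries and 40.3% to 43.3% in early libraries, and bte-mir-124, a miRNA of nervous systems, was counted in all 8 libraries. Libraries of a stage differed from each other by far more than sampling noise (chi-square per degree of freedom 45.3 to 229 in late and 19.0 to 134 in early larvae). The late libraries were the more varied. By median absolute log2 deviation, late replicate 4 (1.04) and late replicate 1 (0.73) stood farthest from the others of their stage. By chi-square, late replicate 1 stood farthest (158 to 229 against each other late library), and late replicates 3 and 4 were closest (45.3). Late replicate 4 had the fewest listed reads, and both measures change with depth. The labels do not say which colony a replicate number stands for, so the tests took the 8 libraries as independent although libraries share colonies. The stages were compared by edgeR's quasi-likelihood test across all 62 miRNAs with at least 10 reads, with Benjamini-Hochberg adjustment. Of the 62, 32.3% had an adjusted p under 0.05 in either direction, and 19.4% were called and higher in late larvae. The 20 calls were 12 higher and 8 lower in late larvae, and with scaling by the listed total alone 11 were higher and 14 lower.

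The cluster was higher in late than in early larvae for the let-7 arm and for the 3p arm of mir-125. bte-let-7 was about 2-fold higher and MC1211 about 16-fold higher in late larvae, and both passed the test. The bte-let-7 call depended on single libraries, and the size of the MC1211 difference rested on late replicate 1. bte-mir-125, the arm that carries the lin-4-related seed, did not pass it. Of the 3 entries 2 were therefore called, both higher, against the 19.4% of all miRNAs tested. With so few entries and with 2 of them from a single hairpin, this count does not set the cluster apart from the list.

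bte-let-7 was the abundant member, with 5914 reads in all. It had 1442, 417, 522 and 151 reads in late replicates 1 to 4, against 1135, 1104, 351 and 792 reads in early replicates 1 to 4. As a share of the listed reads these were 5607, 2942, 4088 and 3308 CPM in late larvae and 2260, 2197, 1719 and 2888 CPM in early larvae. Every late share lay above every early share, which held in this direction for 11.3% of the miRNAs tested, but late replicate 2 and early replicate 4 were nearly level. Their 95% Clopper-Pearson intervals, 2667 to 3238 CPM in late replicate 2 and 2691 to 3096 CPM in early replicate 4, overlapped. These intervals cover counting error only. The mean share was 3986 ± 1182 CPM in late larvae and 2266 ± 480 CPM in early larvae (SD, n = 4 each). In rank, bte-let-7 was between 12 and 18 of the 63 sequences in late libraries and between 17 and 25 in early libraries.

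After TMM normalization, which rescales each library by the bulk of its miRNAs, bte-let-7 averaged 4387 ± 1550 CPM in late larvae and 2126 ± 677 CPM in early larvae (SD, n = 4 each). The difference was 1.05 on the log2 scale (standard error 0.32), and its edgeR adjusted p was 0.0181. On this scale the stages overlapped, because late replicate 4 had 2965 CPM and early replicate 4 had 3103 CPM. The call depended on single libraries. It was lost without late replicate 1 (0.36 on the log2 scale, edgeR adjusted p = 0.415), without early replicate 2 (0.63, adjusted p = 0.288), without early replicate 1 (1.01, adjusted p = 0.0613) and without early replicate 3 (0.92, adjusted p = 0.0745).

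Part of that movement was common to the whole list. Over the 62 miRNAs the median log2 fold change was 0.18 with all libraries, −0.51 without late replicate 1 and −0.26 without early replicate 2. It moved less without early replicate 1 (0.09) and without early replicate 3 (0.14). Relative to this median, bte-let-7 was at 0.86 with all libraries, and it lay between 0.78 and 1.09 in the 15 alternative fits. It was positive in 15 of 15. These fits re-use the same libraries, so they are not independent of each other, and the value relative to the median was not tested.

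**Figure D2:**
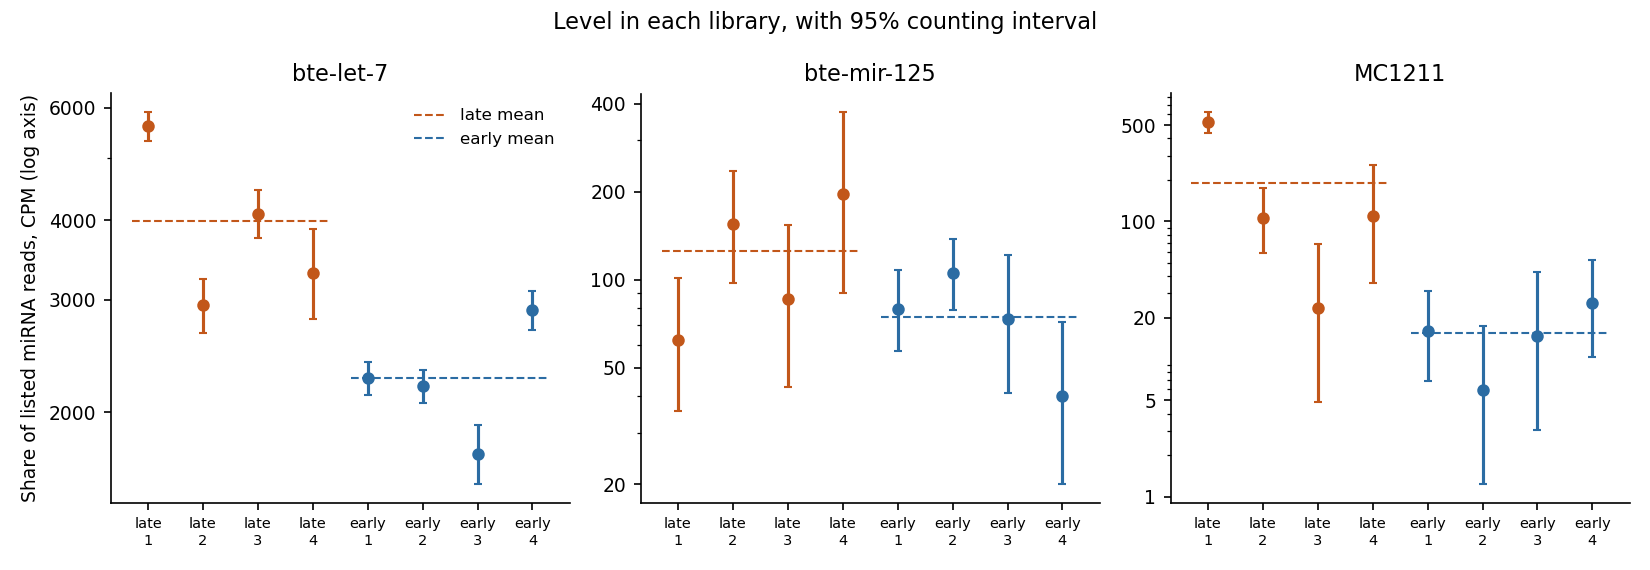
Share of listed miRNA reads in CPM (log axis) for each member in the 4 late and the 4 early libraries, with 95% Clopper-Pearson intervals for counting error and dashed lines at the stage means. All bte-let-7 shares in late libraries are above those in early libraries, bte-mir-125 overlaps between the stages, and MC1211 reaches 525 CPM in late replicate 1.

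bte-mir-125, the 5p arm, was sparse, with 177 reads in all. It had 16, 22, 11 and 9 reads in late replicates 1 to 4 and 40, 53, 15 and 11 reads in early replicates 1 to 4. These were 62.2, 155, 86.1 and 197 CPM in late larvae and 79.6, 105, 73.4 and 40.1 CPM in early larvae. The stages overlapped, since late replicate 1 was below 3 of the 4 early libraries while late replicates 2 and 4 were above all of them. The counting interval of the highest value, in late replicate 4, ran from 90.2 to 374 CPM, as it came from 9 reads. The mean was 125 ± 62.1 CPM in late larvae and 74.7 ± 26.9 CPM in early larvae (SD, n = 4 each). The fitted log2 fold change was 0.89 (standard error 0.50) and did not pass the test (edgeR adjusted p = 0.184). It was positive in all 15 alternative fits, from 0.59 to 1.13, and passed in 0 of them. An increase of the size of that of bte-let-7 lay within 1 standard error of the estimate, so at this depth the 5p arm could neither be shown to rise nor be shown to stay level. A fold change at least as large as that of bte-mir-125 was found for 27.4% of the miRNAs tested.

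MC1211, the 3p arm, had 179 reads, nearly as many as the 5p arm. It had 135, 15, 3 and 5 reads in late replicates 1 to 4 and 8, 3, 3 and 7 reads in early replicates 1 to 4. These were 525, 106, 23.5 and 110 CPM in late larvae and 15.9, 5.97, 14.7 and 25.5 CPM in early larvae. Late replicate 1 alone held most of the reads, late replicates 2 and 4 were also above every early library, and late replicate 3 fell among the early values. The mean was 191 ± 226 CPM in late larvae and 15.5 ± 8.004 CPM in early larvae (SD, n = 4 each).

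On the log2 scale MC1211 was 4.00 higher in late larvae, with a standard error of 0.84 and an edgeR adjusted p of 0.00235. It ranked 3 of 62 by fold change. Without late replicate 1 it was 1.96 (standard error 0.66), with an adjusted p of 0.0150. MC1211 was called in all 15 alternative fits, with edgeR or DESeq2 adjusted p from 1.71e-05 to 0.0257. The direction therefore did not rest on late replicate 1, but the size did. In rank, MC1211 was between 31 and 51 of the 63 sequences in late libraries and between 52 and 60 in early libraries.

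**Figure D3:**
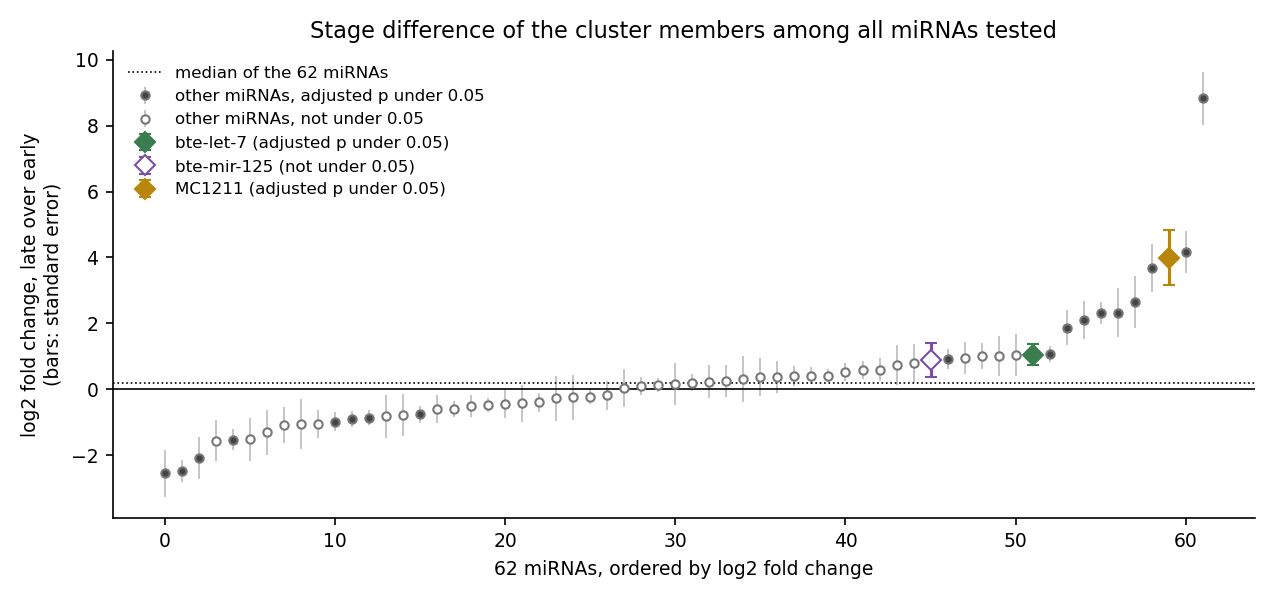
log2 fold change of late over early larvae for the 62 miRNAs tested, ordered by size, with standard errors (filled: edgeR adjusted p under 0.05). MC1211 at 4.00 is near the top, while bte-let-7 at 1.05 and bte-mir-125 at 0.89 sit close together, with only bte-let-7 called.

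Because both arms are cut from the same precursor, the arms were also summed to measure the mir-125 hairpin as a whole. The hairpin had 151, 37, 14 and 14 reads in late replicates 1 to 4 and 48, 56, 18 and 18 reads in early replicates 1 to 4. Its mean was 316 ± 199 CPM in late larvae and 90.2 ± 19.0 CPM in early larvae (SD, n = 4 each). Late replicate 3, with 110 CPM, was just below early replicate 2, with 111 CPM, and the other late libraries were above every early one. In a fit with the summed hairpin in place of its arms, the hairpin was 1.76 higher in late larvae on the log2 scale. Its standard error was 0.56 and its edgeR adjusted p was 0.0276. The median log2 fold change of all miRNAs was −0.23 in this fit, against 0.18 with the arms kept apart. The call was lost without late replicate 1 (0.99, adjusted p = 0.157), without early replicate 2 (1.84, adjusted p = 0.0654) and without early replicate 4 (1.70, adjusted p = 0.0597). It was also lost in alternatives of other kinds, given in the closing section, and was kept in 8 of the 13. Relative to the median of all miRNAs in each fit, the hairpin was at 1.99 with all libraries and from 1.54 to 2.34 in the 13 alternatives.

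**Figure D4:**
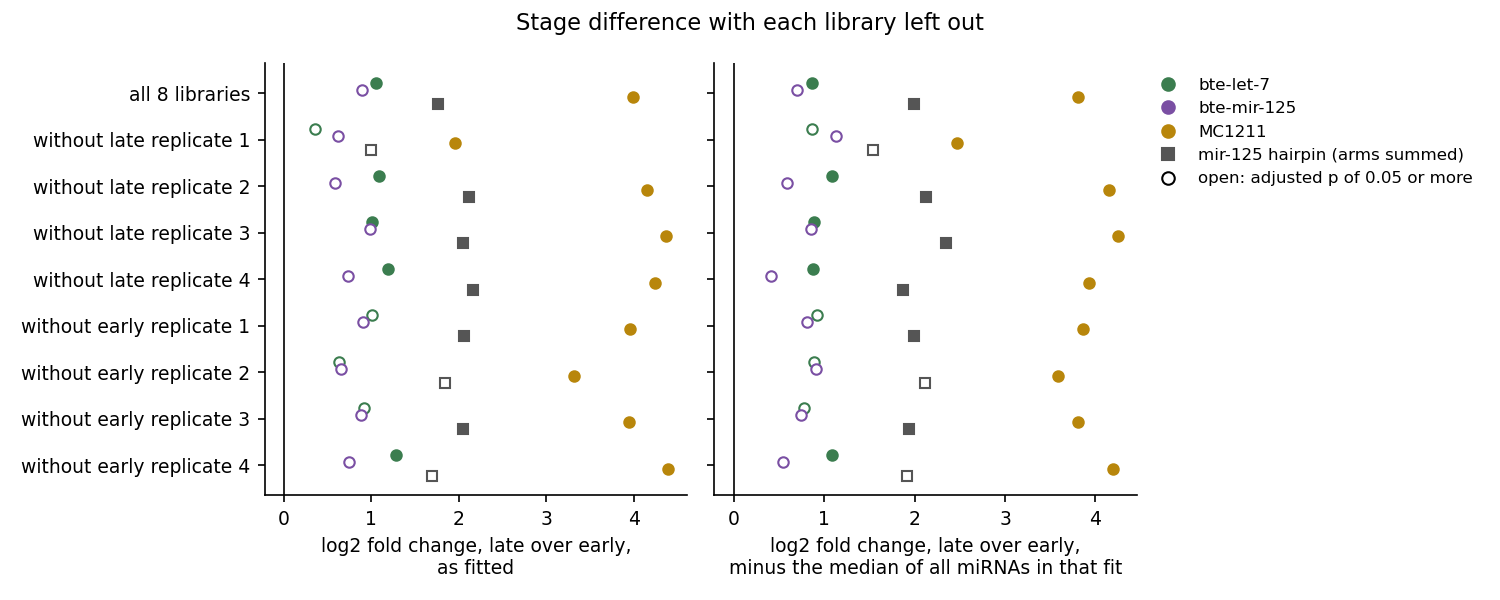
log2 fold change of late over early larvae for the members and the summed mir-125 hairpin with all libraries and with each left out, as fitted (left) and minus the median of all miRNAs in that fit (right); open symbols have an adjusted p of 0.05 or more. bte-let-7 as fitted drops to 0.36 without late replicate 1, while its value relative to the median stays between 0.78 and 1.09.

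Whether the neighbouring miRNAs rose in step was examined by their ratio within each library, in which the library total cancels. In late replicates 1 to 4 there were 90.1, 19.0, 47.5 and 16.8 bte-let-7 reads for each bte-mir-125 read, and in early replicates 1 to 4 there were 28.4, 20.8, 23.4 and 72.0. Both stages thus held libraries with a low and with a high ratio. The mean log2 ratio of bte-mir-125 to bte-let-7 was −5.04 ± 1.15 in late larvae and −4.95 ± 0.80 in early larvae (SD, n = 4 each). The difference was −0.09 (two-sided exact permutation test, p = 0.914, where the smallest possible p is 0.0286). Its sign turned without late replicate 1 (0.38), late replicate 3 (0.06), early replicate 2 (0.10) or early replicate 3 (0.05). No change of the ratio between stages was detectable at this depth, and the spread among libraries, about 1 on the log2 scale, was wide enough to hide one. With both arms of the hairpin summed, the difference in log2 ratio to bte-let-7 was 0.81 (exact permutation test, p = 0.171).

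Within a stage, bte-let-7 and bte-mir-125 deviated in opposite directions, the values of bte-mir-125 resting on 9 to 53 reads a library. Each library was set against the mean of the other 3 libraries of its stage on the log2 TMM scale. In late replicate 1, bte-let-7 was 0.81 above that mean and bte-mir-125 was 0.98 below it. In early replicate 4, bte-let-7 was 0.79 above and bte-mir-125 was 0.70 below. The signs of bte-let-7 and bte-mir-125 were opposite in 8 of 8 libraries, and in 7 of 8 when shares of listed reads were used in place of TMM values. In early replicate 3 the deviation of bte-mir-125 was only 0.01. MC1211 had the sign of bte-let-7 in 6 of 8 libraries, and in 5 of 8 by shares of listed reads, with its largest deviations in late replicate 1, where it was 2.96 above, and in late replicate 3, where it was 2.54 below. On the TMM scale bte-mir-1 had the sign of bte-let-7 in 8 of 8 libraries. Its largest deviations were 0.53 below in late replicate 4 and 0.52 above in late replicate 1. In late replicates 2 and 3 its deviations, −0.003 and 0.02, were close to 0. By shares of listed reads the agreement was not complete. bte-mir-1 was then below the others on average in late replicate 3 (35.2% of listed reads) and early replicate 1 (40.5%). In these libraries bte-let-7 was 0.11 and 0.03 above on the log2 scale. The part of bte-mir-1, the most abundant entry, in these deviations was not tested. These deviations were examined after the values had been seen. The deviations of a stage sum to 0 and are not independent, so no test was made.

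The use of the arms differed most in the library with the most hairpin reads. The 5p arm held 10.6% of the 151 hairpin reads in late replicate 1 (95% Clopper-Pearson interval 6.18 to 16.6), 59.5% in late replicate 2 (42.1 to 75.2), 78.6% in late replicate 3 (49.2 to 95.3) and 64.3% in late replicate 4 (35.1 to 87.2). In early replicates 1 to 4 it held 83.3%, 94.6%, 83.3% and 61.1%. The interval of late replicate 1 lay below those of the 7 other libraries, so its low 5p share exceeded counting error. Of the early libraries, replicate 4 had the lowest 5p share, from 11 of 18 reads (interval 35.7 to 82.7). This interval overlapped those of early replicates 1 (69.8 to 92.5) and 3 (58.6 to 96.4), but not that of early replicate 2 (85.1 to 98.9). Early replicate 4 also had the most bte-let-7 per listed read and the least bte-mir-125 of the early libraries. The bte-mir-125 reads enter the 5p share, so these are not separate traits. The mean 5p share was 53.2% ± 29.6 in late larvae and 80.6% ± 14.05 in early larvae (SD, n = 4 each), and the difference of −27.4 percentage points did not pass the test (two-sided exact permutation test, p = 0.0857, smallest possible p 0.0286). Without late replicate 1 it was −13.2 percentage points (exact permutation test, p = 0.171).

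**Figure D5:**
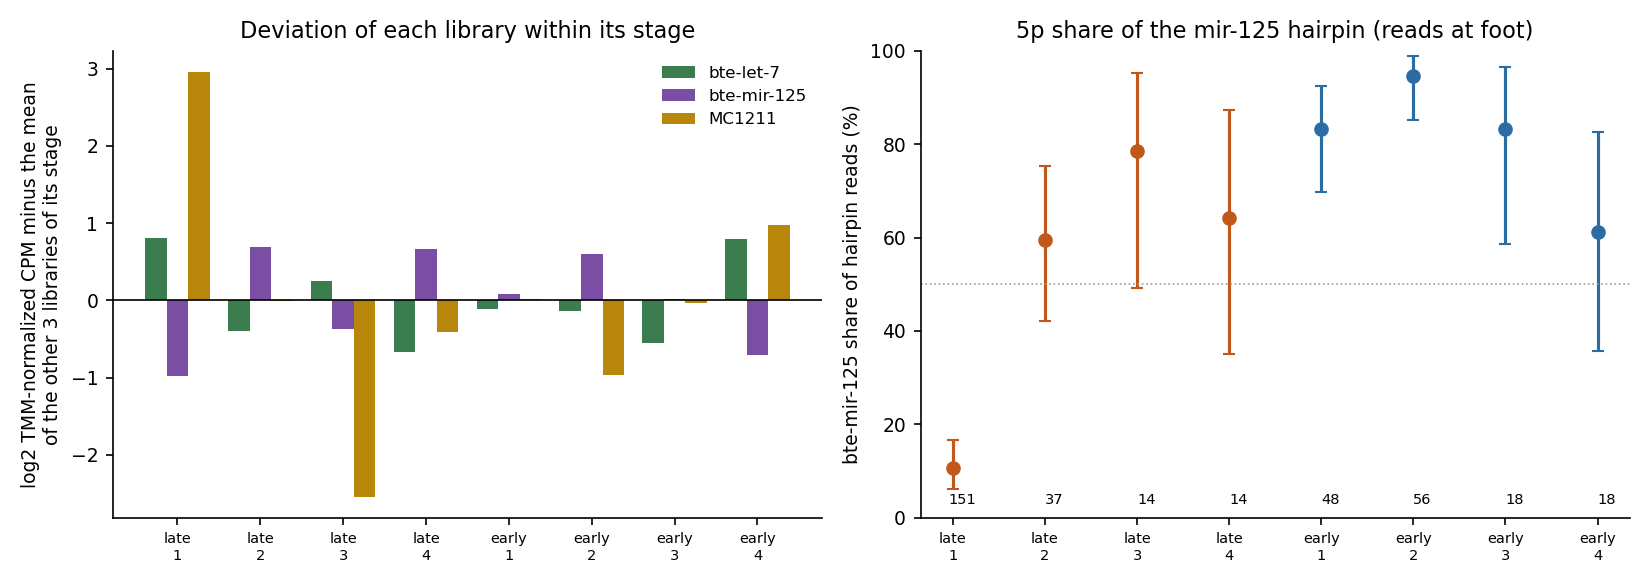
Left, log2 TMM-normalized value of each member in each library minus the mean of the other 3 libraries of its stage. Right, share of mir-125 hairpin reads on the 5p arm with 95% Clopper-Pearson intervals and the number of hairpin reads at the foot; late replicate 1 is at 10.6% of 151 reads and all other libraries are above 59%.

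Among the other 61 miRNAs tested, those whose log2 values over the 8 libraries were most like those of bte-let-7 were found by Pearson's r, given as a description because the stage difference enters it. The highest were bte-mir-2765 (r = 0.88), MC1211 (0.79), bte-mir-6001 (0.73), bte-mir-1 (0.71) and bte-mir-6037 (0.71). For bte-mir-6001, Spearman's rho was 0.46 and r was negative among the late and among the early libraries alone, so its place rested on the difference between stages. bte-mir-2765, the most like, had 1599 to 3234 CPM in late libraries and 544 to 587 CPM in early libraries, and was 2.31 higher in late larvae on the log2 scale (standard error 0.34 and edgeR adjusted p = 0.000123). bte-mir-125, less than 1 kb from let-7 on the same strand, ranked 29 of 61 (r = 0.15). It had 9 to 53 reads a library, so counting error limits this r. The least like bte-let-7 were bte-mir-13b (r = −0.93), bte-mir-71 (−0.77) and bte-mir-2-1 (−0.76). Among the late libraries alone, r was −0.89 for bte-mir-13b, 0.04 for bte-mir-71 and 0.32 for bte-mir-2-1. Among the early libraries alone, it was −0.82, −0.85 and −0.83. bte-mir-13b had 747 to 1292 CPM in late libraries, against 1594 to 2903 CPM in early libraries.

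A further list held miRNAs with known links to ecdysone, juvenile hormone or growth in other insects. Of its 7 entries in the table, 6 could be tested, and 3 were lower, 0 were higher and 3 were not called in late larvae. Of all 62 miRNAs tested, 12.9% were called and lower in late larvae, or 14 of 62 with scaling by the listed total, so a list this short is not set apart by its count. Their median log2 fold change was −0.22, against 0.18 for all miRNAs tested. bte-mir-2-1 and bte-mir-13b, members of a family that lowers the juvenile hormone response gene Krüppel homolog 1 in the cockroach Blattella germanica, fell by 2.48 (standard error 0.34, edgeR adjusted p = 7.30e-05) and by 0.99 (0.29, adjusted p = 0.0168) on the log2 scale. bte-bantam, which promotes tissue growth in D. melanogaster, fell by 0.86 (standard error 0.24, edgeR adjusted p = 0.0129). bte-bantam had 17678 to 29561 CPM in late libraries and 46069 to 58423 CPM in early libraries. Such a separation was not particular to it. bte-mir-306 had 4140 to 5878 CPM in late and 9952 to 10791 CPM in early libraries, and other entries were separated in this direction too. bte-mir-8, which acts on growth and steroid signalling in D. melanogaster, was at 0.42 on the log2 scale and was not called (standard error 0.18 and edgeR adjusted p = 0.0927). Neither arm of the mir-281 hairpin was called, with 0.53 for MC2238 (standard error 0.27, edgeR adjusted p = 0.139) and 1.01 for bte-mir-281 (standard error 0.61, adjusted p = 0.206).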

How the data were processed

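After pooling all 8 libraries and mapping the reads to Bter_1.0, the authors identified hairpins by miRCat or by conservation and deposited raw counts of each mature sequence in every library. The aligner, mismatches and treatment of end variants are not given in the sources used here, and they could change sparse counts such as those of the mir-125 arms. Libraries were made with a 3′ adaptor carrying degenerate bases, which lowers ligation bias.

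Count columns were matched to libraries by stage initials and replicate number, and 0 were left unmatched. bte-mir-275, whose cells were empty for 7 libraries, was left out, and a sequence listed at 2 loci was counted once. CPM are counts per 1000000 listed reads. Sequences with at least 10 counts in all (62 of 63) were fitted with edgeR 4.0.16 in R 4.3.3 (TMM, stage as the only term, Benjamini-Hochberg adjustment over all 62). The method was tested on simulated data. Standard errors were approximated from the fold change and the F statistic. Ratios used counts plus 0.5 and, like arm shares, exact permutation tests (SciPy 1.17.1). Precursors were folded with RNAfold 2.7.2. Libraries share colonies in a way the labels do not resolve, so p-values measure only the spread between these libraries.

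Named were the 3 members, the entries sharing their seed or scaffold, the 5 most and 3 least like bte-let-7, a list linked to hormones and growth, and miRNAs used to describe the libraries. Members, lists and tests were chosen with earlier results of these data known. The alternatives were DESeq2 1.42.0, scaling by the listed total, no filter, a replicate block, both rows of the shared sequence, no bte-mir-1, each library left out, a pseudocount of 1, libraries with at least 20 hairpin reads, and summed reads. Leaving out both libraries numbered 1, and the ratio with summed arms, were added after seeing the data.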

Additional observations from a re-analysis of the deposited data

Results flagged for a closer look

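MC1211 in late replicate 1 stood apart from the other late libraries, with 599 TMM-normalized CPM. The gap to the next late library, divided by the range of the 4, was 0.834 and just above the 95% critical value of Dixon's test, which chance passes in about 1 group in 20. As a share of listed reads the gap did not pass. bte-mir-275, which is on the list linked to hormones, was listed with 355 reads for late replicate 4 only, its cells being empty for 7 libraries, and entered no comparison.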

How the results depend on the processing

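The increase of MC1211 was called in all 15 alternatives and the difference of bte-mir-125 in 0 of 15. bte-let-7 was called in 10 of 15 and the summed mir-125 hairpin in 8 of 13, and all kept a positive log2 fold change. With each library left out in turn, the log2 fold change ranged from 0.36 to 1.29 for bte-let-7, from 0.59 to 0.98 for bte-mir-125, from 1.96 to 4.39 for MC1211 and from 0.99 to 2.16 for the hairpin. With both libraries numbered 1 left out it was 0.77 for bte-let-7 (edgeR adjusted p = 0.170) and 1.46 for the hairpin (adjusted p = 0.0777). The difference in log2 ratio of bte-mir-125 to bte-let-7 ranged from −0.48 to 0.38 with each library left out, and was 0.81 with both arms summed. The difference in 5p share was −58.1 percentage points with reads summed over the libraries of a stage, a sum that gives late replicate 1 the most weight. It was −54.0 with the 2 late and 2 early libraries of at least 20 hairpin reads, and from −35.8 to −13.2 with each library left out. The number of miRNAs called was 20, with 27 under DESeq2, and 14 to 29 over all alternatives. The median log2 fold change of all miRNAs moved with the scaling, from 0.18 under TMM to 0.14 under DESeq2 and −0.09 under the listed total, and in the fit with summed arms it was −0.23. The cause of a lost call was not tested. With the replicate number as a block, 18 miRNAs were called, and the hairpin had 1.48 (edgeR adjusted p = 0.0633) while no call of the single members changed. Same-numbered libraries did not deviate together (r of −0.12 to 0.07), so the numbers were not taken as pairs. Counts of 3 to 53 for the mir-125 arms in 7 of 8 libraries limit what can be said of them.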
